A study of Mus musculus and Homo sapiens with 14 samples.

Results

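The mouse plasmacytoma line MPC-11 was compared with primary plasma cells sorted from the spleen, using only the control libraries of a study of the transcription factor IRF4. The comparison rests on 4 of the 14 RNA-seq libraries of the study: the 2 MPC-11 libraries with an empty vector and the 2 libraries of splenic plasma cells of genotype Irf4 flox/+. They were chosen by their labels and column headings, and no measured value entered the choice. All gene rows with a symbol were kept except those of the immunoglobulin genes, which were taken out before scaling.

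The splenic plasma cells came from bone marrow of Irf4 flox/+ donors, labelled C57BL/6, placed together with uMT bone marrow (which makes no B cells) in congenic hosts. The hosts were given tamoxifen repeatedly and harvested on day 14, when donor plasma cells were sorted. These primary cells therefore carry 1 loxP-flanked Irf4 allele and were exposed to tamoxifen, and the labels do not name the Cre driver. The MPC-11 cells are labelled as a plasmacytoma from lymph node, C57BL/6, of wild-type genotype, although the line is known as one of BALB/c origin. They were infected with Cas9 and an empty vector, given doxycycline and sorted on day 3. So the tumour line differs from the primary cells in Cas9, vector, doxycycline and culture as well as in being a line. The primary cells differ from it in tamoxifen, the loxP-flanked Irf4 allele and growth in a host, and the strain may differ too. All of these cannot be told apart. A second pair of groups used none of the same libraries: MPC-11 with a guide RNA against Irf4 (2 libraries, otherwise handled alike) and splenic plasma cells of Irf4 flox/- donors (2 libraries). Wild-type bone marrow plasma cells and wild-type splenic follicular B cells, with 1 library each, are given beside them as values without a test. The labels do not say that the 2 libraries of a group come from separate animals or cultures, so the p-values measure only the spread between these libraries.

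Plasma cells are the antibody-secreting end stage of the B cell lineage. They switch off much of the B cell programme, enlarge the endoplasmic reticulum (ER) under Xbp1 and Prdm1, and normally no longer divide. Mouse plasmacytomas are tumours of such cells that grow continuously, and as a class they typically carry a translocation that joins Myc, or the neighbouring Pvt1 region, to an immunoglobulin locus.

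The 10 mouse libraries held between 18738283 and 27003585 counts. After the immunoglobulin genes were removed, the splenic flox/+ libraries, called a and b because their columns share 1 heading, kept 5419720 and 6152898 counts, and MPC-11 empty vector libraries 1 and 2 kept 12731632 and 15715451. A gene with no count is therefore bounded less tightly in the primary cells. Levels are given as CPM (counts-per-million), computed on the counts without immunoglobulin genes and scaled by TMM over the 10 libraries. Between the libraries of a group, the counts differed by far more than sampling noise (chi-square per degree of freedom 64.2 to 140), so none was a repeat of another. In bulk libraries fewer cells of a type and less RNA per cell cannot be told apart.

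Immunoglobulin transcripts took most counts of the primary cells and a smaller part of those of MPC-11. They made up 75.5% and 77.2% of counts in splenic libraries a and b, and 33.8% and 17.7% in MPC-11 libraries 1 and 2. The mean was 76.4% ± 1.16 (SD, n = 2) against 25.7% ± 11.4 (SD, n = 2), so that the immunoglobulin share of counts differed by -50.6 percentage points. The groups did not overlap, and the exact permutation p of 0.333 is the smallest that 2 libraries against 2 can give.

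The immunoglobulin genes in the libraries labelled MPC-11 did not match the chains for which that line is known. MPC-11 is known as a producer of an IgG2b heavy chain with a kappa light chain. In its 2 libraries Ighg2b, the IgG2b constant gene, took 0.000337% and 0.000147% of immunoglobulin counts, and Igkc, the kappa constant gene, took 0.197% and 0.301%. Iglc1, a lambda constant gene, took 51.0% and 45.0%, and the lambda variable gene Iglv1 took 35.2% and 32.8%. Igha, the IgA constant gene, was the leading heavy chain constant gene, with 1.47% and 3.63%. The guide RNA libraries showed the same pattern, with Iglc1 at 51.0% and 50.5% and Ighg2b at 0% and 1.72e-05%. The lambda constant genes are close copies of each other, so the division between Iglc1 and Iglc3 (6.88% and 10.3%) is uncertain.

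**Figure D1:**
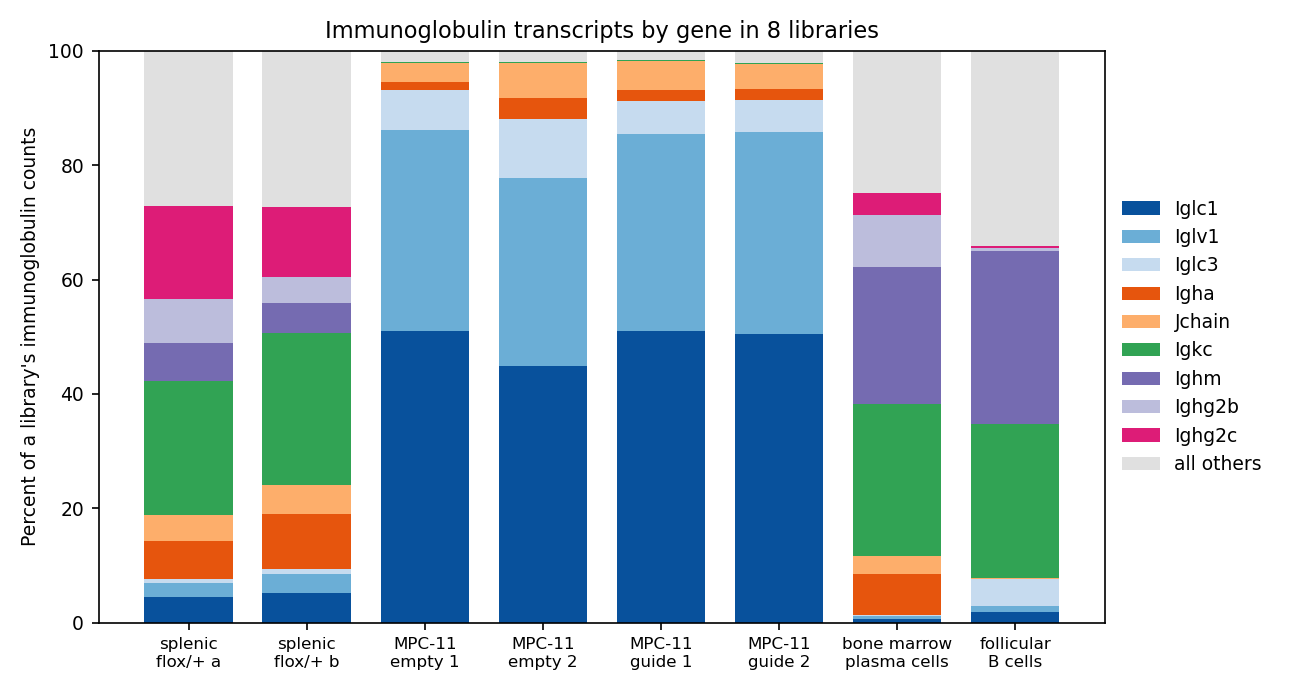
Share of each immunoglobulin gene among a library's immunoglobulin counts (percent, stacked to 100) in 8 libraries, each bar being 1 library. The 4 MPC-11 libraries are filled mostly by Iglc1 and Iglv1, while the splenic flox/+ and the bone marrow libraries hold Igkc, several heavy chain constant genes and many other genes.

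The primary cells had a mixed repertoire. Igkc took 23.4% and 26.7% of immunoglobulin counts in libraries a and b, and the heavy chain constant genes Ighg2c (16.3% and 12.4%), Igha (6.65% and 9.60%), Ighg2b (7.70% and 4.43%) and Ighm (6.61% and 5.25%) were all present. Because of the mismatch, the tumour samples are called libraries labelled MPC-11, or MPC-11 libraries for short, and every direction given for them rests on that label. Their plasma cell label itself was checked against the defining genes Irf4, Prdm1, Xbp1, Sdc1 and Tnfrsf17, each of which stood above its level in follicular B cells in both libraries. Mzb1, another plasma cell marker, went the other way, with 2.87 and 0.977 CPM in MPC-11 libraries 1 and 2 against 355 CPM in follicular B cells.

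Across the transcriptome the MPC-11 libraries differed from the primary cells at many genes, in both directions. Of 11312 genes that passed the filter on low counts, 1361 (12%) were called higher and 1676 (14.8%) were called lower in MPC-11 (edgeR quasi-likelihood test, Benjamini-Hochberg adjusted p under 0.05). Among all tested genes the median log2 fold change, MPC-11 over primary, was -0.01. The median of the higher calls was 3.85 and that of the lower calls was -7.27. The smallest change called was 1.13 on the log2 scale, so with 2 libraries a group only large differences passed, and 8275 genes were not called either way. The 2 libraries of 1 group lay on the same side of both libraries of the other at 7469 genes (66.0%). Without MPC-11 library 1 the counts went to 454 higher and 778 lower, and without MPC-11 library 2 to 588 and 826.

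**Figure D2:**
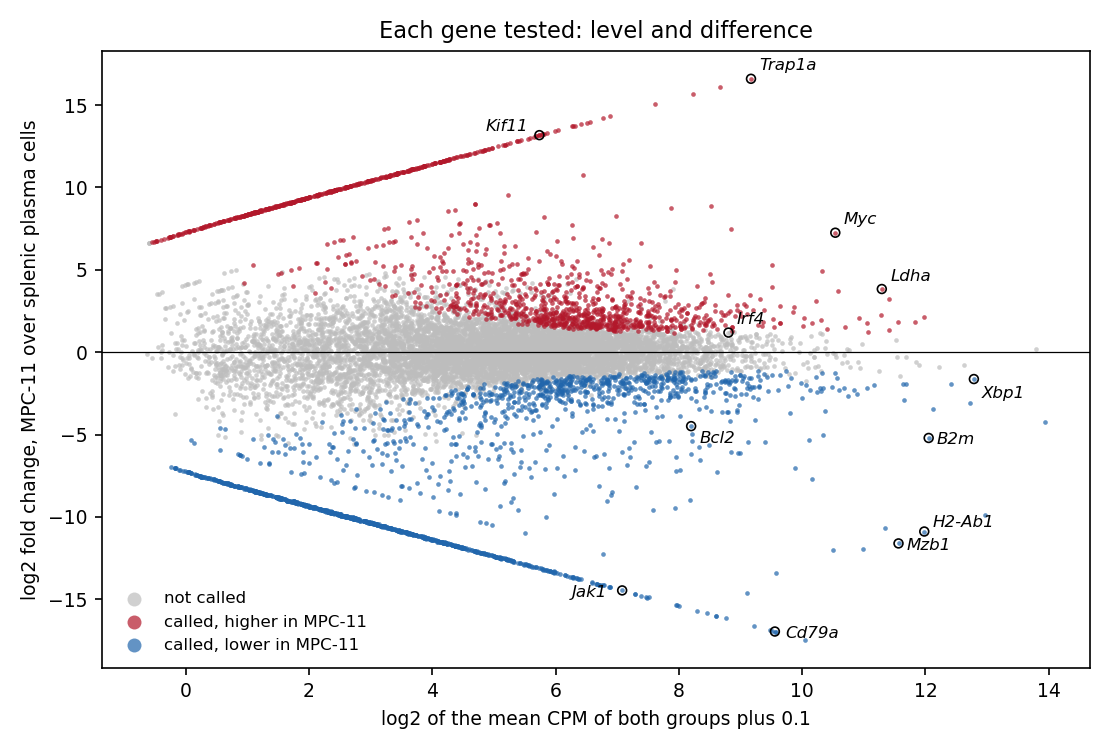
Each of the 11312 tested genes by its level (log2 of the mean CPM plus 0.1, x axis) and its log2 fold change, MPC-11 over splenic plasma cells (y axis), with called genes in red (1361 higher) and blue (1676 lower). The 2 straight outer edges are genes with no count in 1 group, whose fitted fold change depends on the prior count.

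Some genes went from expression in one group to no count in the other. Of all 25960 genes, 10413 and 10559 had at least 10 counts in MPC-11 libraries 1 and 2. In primary libraries a and b 10575 and 9982 did. The share of all genes without any count was not computed, so counts of list members at 0 have no such share beside them. Of 5674 genes at 20 CPM or more in both primary libraries, 243 (4.28%) had 0 counts in both MPC-11 libraries, and 201 of these also had 0 in both guide RNA libraries. Of the 201, 156 stood at 20 CPM or more in the bone marrow plasma cells and 138 did so in the follicular B cells. The same shares among all 5674 genes were not computed, so these counts set the 201 apart from no other genes. In the other direction, 103 of 5801 genes (1.78%) at 20 CPM or more in both MPC-11 libraries had 0 counts in both primary libraries, and 36 of them had none in the flox/- libraries either. A fold change against a group without counts is given as a lower bound, set at a floor of 3 counts over the 2 libraries of that group.

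The same contrast in the targeted libraries gave 1562 higher (12.8%) and 2711 lower (22.3%) genes of 12181 tested. In these libraries Irf4 stood at 353 and 182 CPM with the guide RNA and at 272 and 327 CPM in the flox/- cells, and the labels do not say which part of the gene is removed. Of 11045 genes tested in both pairs, 889 were called higher in both, which is 68.6% of the control list and 59.5% of the targeted list. Called lower in both were 1340, or 83.7% and 67.6%. The flox/- libraries held more transcripts of macrophage, T cell and NK cell markers than the flox/+ libraries, as given below. The part of such cells in the targeted calls was not tested. Calls in opposite directions numbered 6 among genes higher in the control pair (Sema4c, 5730409K12Rik, Spry1, Dhrs3, Pidd1 and Kdm4d, named after their values were seen) and 1 among those lower (Napsa, likewise). A direct test of whether the difference depended on Irf4 targeting called 0 of 12837 genes (0%; edgeR, smallest adjusted p = 0.128, with 811 at an unadjusted p under 0.05 and 18 called without the filter on low counts).

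**Figure D3:**
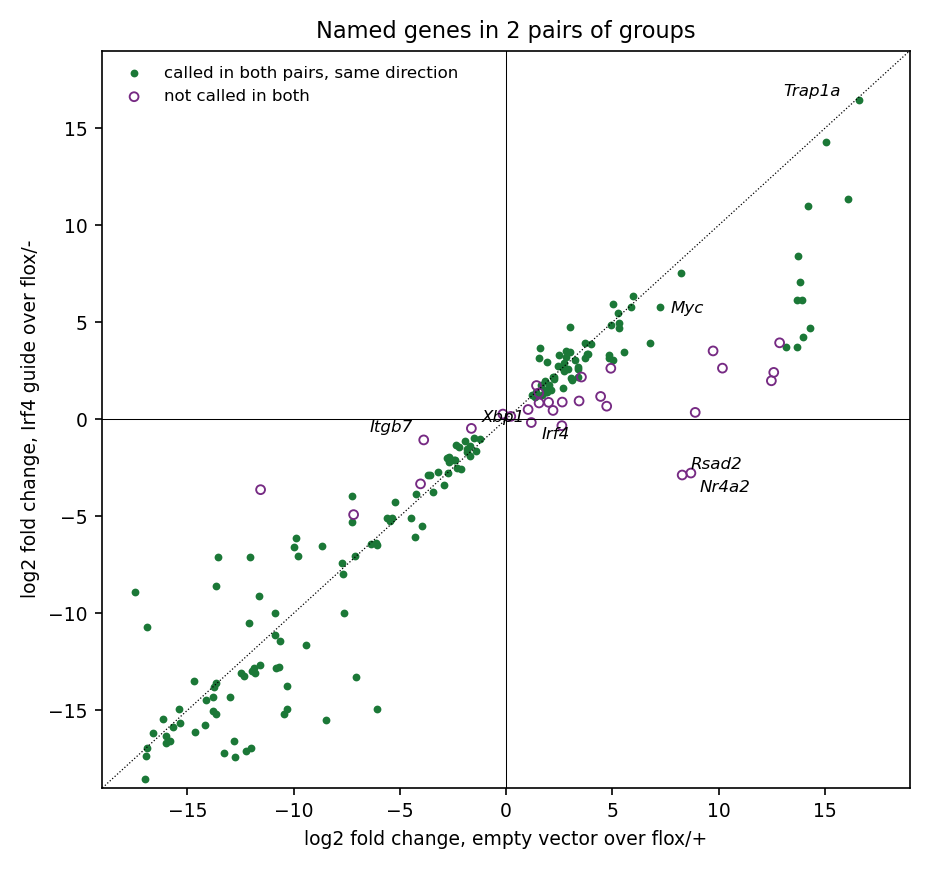
Log2 fold change of the 190 named genes in the control pair (x axis, empty vector over flox/+) against the targeted pair (y axis, Irf4 guide over flox/-), with the dotted line at equality. Filled points are the 161 genes called in the same direction in both pairs, and open points are the other 29, among them Irf4, Xbp1 and Itgb7.

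The regulators that define plasma cells, Irf4, Prdm1 and Xbp1, were retained in the MPC-11 libraries, and some other plasma cell regulators were called lower. Irf4 lies on chromosome 13 at 30749233 to 30766981 (mm10, Entrez 16364). It was measured at 381 and 181 CPM in the primary libraries and at 603 and 624 CPM in MPC-11. The primary cells carry 1 loxP-flanked Irf4 allele and were exposed to tamoxifen, and the part of this in the Irf4 values was not tested. The groups did not overlap, but the spread between the primary libraries was wide and the gene was not called (log2 fold change 1.19 ± 0.43, SE; edgeR adjusted p = 0.0832). It was called without primary library a (1.74; edgeR adjusted p = 0.0374) and by DESeq2 (adjusted p = 0.0414). Prdm1, which encodes the repressor BLIMP-1, stood at 188 and 197 CPM against 359 and 599 CPM in MPC-11. Its call as higher (1.36 ± 0.41; edgeR adjusted p = 0.0467) ended with each of the 4 libraries left out in turn, at 0.98 without MPC-11 library 2 to 1.71 without MPC-11 library 1. Xbp1, the driver of the secretory programme, stood at 9143 and 12332 CPM against 3487 and 3302 CPM, and was called lower (-1.63 ± 0.38; edgeR adjusted p = 0.0185). Its call ended with immunoglobulin genes kept (edgeR adjusted p = 0.0528) and on the deposited log2 FPKM (-0.79; limma adjusted p = 0.191), and it was not called in the targeted pair (-0.47; edgeR adjusted p = 0.266). Follicular B cells held Xbp1 at 289 CPM and Prdm1 at 2.32 CPM, so for these genes both MPC-11 libraries lay far on the plasma cell side.

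Of 24 plasma cell regulators tested, 1 was higher and 6 were lower, with a median of -0.67. Over all tested genes 12% were higher and 14.8% were lower. Ikzf3, which encodes the zinc finger factor Aiolos, had 424 and 471 CPM in the primary cells and 3.82 and 16.9 CPM in MPC-11 (-5.37 ± 0.77; edgeR adjusted p = 0.00387). Klf6, a zinc finger factor that is also an immediate early gene, had 130 and 289 CPM and no count in MPC-11, at least 2276-fold lower. Bhlha15, which encodes the secretory cell factor MIST1, stood at 438 and 233 CPM against 82.8 and 87.4 CPM (-1.92 ± 0.43; edgeR adjusted p = 0.0156), a call that ended without primary library a (-1.47) or either MPC-11 library (-1.87 and -1.94). Leaving out primary library a, MPC-11 library 1 or MPC-11 library 2 left 3 lower calls in the list.

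At the cell surface the pattern was uneven. Sdc1 (CD138, the marker by which plasma cells are usually sorted) stood at 2105 and 2102 CPM in the primary cells and at 896 and 845 CPM in MPC-11. The groups did not overlap (-1.24 ± 0.34; edgeR adjusted p = 0.0339), but the call ended without primary library b (-1.17) and without MPC-11 library 1 (-1.24) or 2 (-1.15). Tnfrsf17 (BCMA, a survival receptor for the ligands APRIL and BAFF) stood at 184 and 203 CPM against 445 and 333 CPM, higher in both MPC-11 libraries but not called (1.04 ± 0.37; edgeR adjusted p = 0.0807). It was called by DESeq2 (adjusted p = 0.029). The sister receptor Tnfrsf13b (TACI) went the other way, from 651 and 713 CPM to 67.0 and 44.1 CPM (-3.59 ± 0.42; edgeR adjusted p = 0.00192). Slamf7, the target of an antibody used in myeloma, stood at 1098 and 1082 CPM against 167 and 135 CPM (-2.82 ± 0.37; edgeR adjusted p = 0.00294). Tnfrsf13b and Slamf7 were named after their values were seen.

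**Figure D4:**
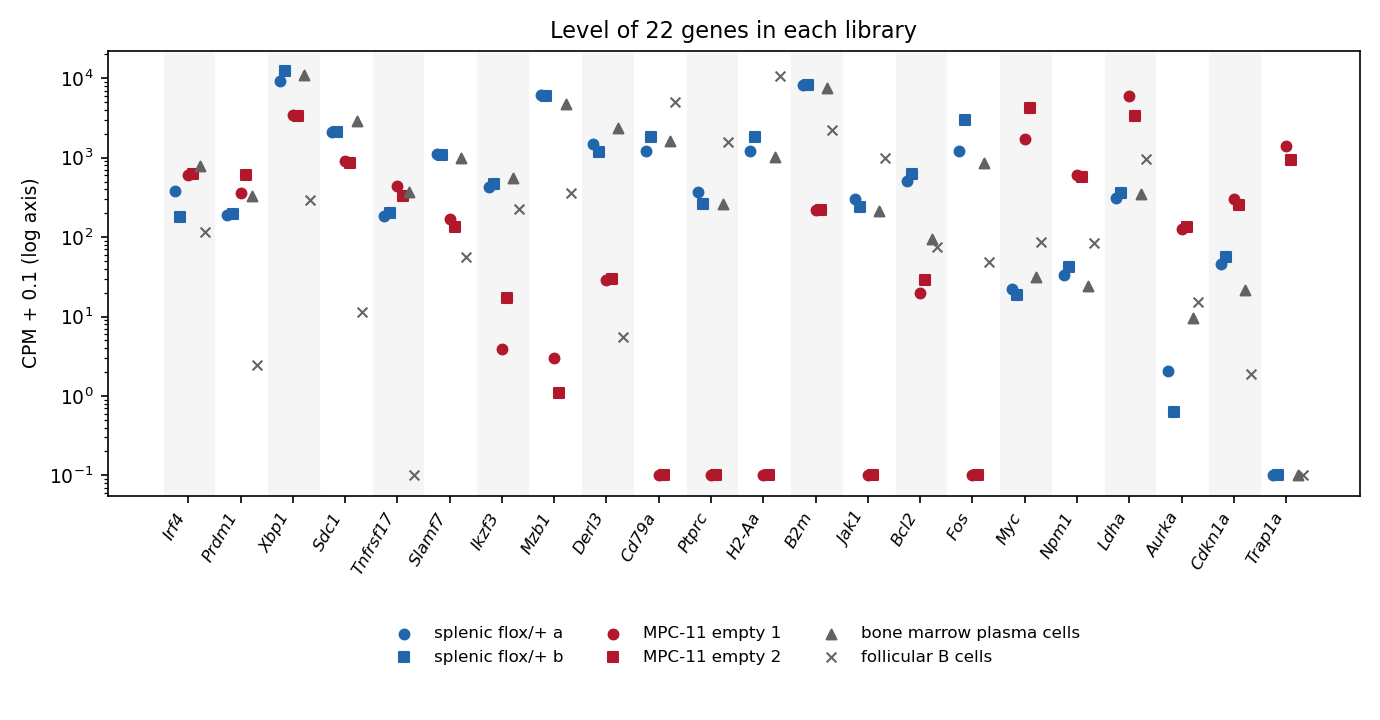
Level of 22 genes (CPM plus 0.1, log axis) in the 2 splenic flox/+ libraries (blue), the 2 MPC-11 empty vector libraries (red), and 1 library each of bone marrow plasma cells (triangle) and follicular B cells (cross). Genes such as Cd79a, Ptprc, H2-Aa, Jak1 and Fos sit at the bottom of the axis, at 0 counts, in both MPC-11 libraries, and Trap1a does so in both primary libraries.

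Of 27 plasma cell surface and survival receptors tested, 15 were lower and 1 was higher, with a median of -3.04. Ly6a (Sca-1) fell from 4550 and 3603 CPM to 0.294 and 1.57 CPM (-11.96 ± 0.89; edgeR adjusted p = 6.13e-04), and Cd93, a receptor linked to plasma cell persistence in bone marrow, from 497 and 491 CPM to 2.65 and 3.69 CPM. Ly6k and Cd9 had no count in MPC-11, at least 1645-fold and at least 1755-fold lower. The 1 higher member, Ly6c1, stood at 53.2 and 44.7 CPM against 149 and 136 CPM (1.58 ± 0.40; edgeR adjusted p = 0.0248). Its call ended with any 1 library left out, at 1.52 without primary library b to 1.69 without MPC-11 library 2. Il6ra, a chain of the receptor for the myeloma growth factor IL-6, stood at 44.2 and 85.6 CPM against 1.25 and 9.07 CPM (-3.60 ± 1.01; edgeR adjusted p = 0.0350). That call ended without primary library b (-2.97) or MPC-11 library 1 (-2.76).

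Among the 29 lists with at least 10 tested members, the cell type markers aside, the B cell identity genes had the lowest median. Primary plasma cells still held these transcripts, and in MPC-11 a large part of them had no count. Of 30 tested, 23 were lower, 0 were higher and 7 were not called, with a median of -7.87, or -6.73 with genes at 0 set to their bounds. The list has 34 members in the table, of which 17 had 0 counts in both MPC-11 libraries and 0 had none in both primary libraries. Cd79a, the signalling chain of the B cell receptor (chromosome 7, 24897497 to 24901858 in mm10, Entrez 12518), was measured at 1217 and 1798 CPM in the primary cells, 1600 CPM in bone marrow plasma cells and 5006 CPM in follicular B cells. It had 0 counts in MPC-11, at least 16236-fold lower (edgeR adjusted p = 5.91e-04).

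Other defining genes of the lineage were at 0 with it. Ptprc, which encodes the leukocyte phosphatase CD45, stood at 365 and 258 CPM and was at least 3297-fold lower. Irf8, a relative of Irf4 that acts earlier in the lineage, stood at 202 and 234 CPM and was at least 2333-fold lower. Both were at 0 in the guide RNA libraries too. Cd79b, the partner of Cd79a, was reduced and not lost, with 2672 and 3242 CPM against 566 and 345 CPM (-2.67 ± 0.42; edgeR adjusted p = 0.00501). Spi1 (PU.1) stood at 95.2 and 142 CPM against 209 and 177 CPM, and the adaptor Blnk at 434 and 487 CPM against 498 and 878 CPM; neither was called. Cd79b, Spi1 and Blnk were named after their values were seen.

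The bases before the start of Cd79a and of Trap1a are shown because these genes mark the opposite ends of the contrast, one without counts in MPC-11 and the other without counts in the primary cells. Both are from RefSeq, build GRCm38.p6, plus strand, 5′ to 3′, ending before the first annotated exon in GENCODE M21, with CG pairs in capitals. The Cd79a stretch is chr7:24897247-24897380 and the Trap1a stretch is chrX:139333433-139333682.
Cd79a: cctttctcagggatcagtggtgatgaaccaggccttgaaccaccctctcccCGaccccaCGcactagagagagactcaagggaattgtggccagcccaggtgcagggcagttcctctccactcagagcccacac
Trap1a: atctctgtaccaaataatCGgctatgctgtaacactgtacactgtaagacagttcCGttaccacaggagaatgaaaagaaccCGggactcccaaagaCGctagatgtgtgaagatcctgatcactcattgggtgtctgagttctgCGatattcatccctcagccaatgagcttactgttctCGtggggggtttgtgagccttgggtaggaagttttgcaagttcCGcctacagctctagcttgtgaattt
The Cd79a stretch of 134 bases holds 2 CG pairs, and 50.4% of 32851 RefSeq promoter entries hold at most as many in the same stretch. The Trap1a stretch of 250 bases holds 7, and 57% of entries hold at most as many. Neither is rich in CG against other promoters, and the files hold no methylation data.

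Antigen presentation was lower in MPC-11 in both its branches. Of 15 genes of MHC class II presentation tested, 8 were lower and 1 was higher (median -4.26). H2-Aa, the class II alpha chain, stood at 1206 and 1843 CPM in the primary cells and had no count in MPC-11, at least 16432-fold lower. The beta chain H2-Ab1 stood at 5458 and 10711 CPM against 4.34 and 4.07 CPM (-10.89 ± 0.67). The invariant chain Cd74, which holds class II molecules during their assembly, stood at 30567 and 29183 CPM against 1531 and 1509.5 CPM (-4.26 ± 0.40; edgeR adjusted p = 9.75e-04). Ifi30, a lysosomal thiol reductase that prepares antigens, was the higher member, at 21.8 and 4.62 CPM against 249 and 299 CPM (4.45 ± 0.73; edgeR adjusted p = 0.00587). It was not called in the targeted pair. Class II genes differ between mouse strains, and the part of the line's strain in the H2 counts was not tested.

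Of 18 genes of MHC class I presentation, 12 were lower and 1 was higher (median -2.33). B2m, the light chain shared by all class I molecules, stood at 8304 and 8258 CPM in the primary cells and at 218 in each MPC-11 library (-5.21 ± 0.41; edgeR adjusted p = 6.13e-04). H2-K1, a classical heavy chain, stood at 7458 and 8974 CPM against 786 and 705 CPM (-3.43 ± 0.39; edgeR adjusted p = 0.00177). H2-Q7 stood at 1000 and 960 CPM against 14.7 and 12.7 CPM (-6.12). The higher member H2-Q4 (1.71 ± 0.50; edgeR adjusted p = 0.0398) lost its call without primary library a (1.29) or either MPC-11 library (1.81 and 1.72). The class I heavy chain genes are near-identical copies that differ between mouse strains, so how reads were divided among them is uncertain. B2m has no such copies.

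Interferon response genes were lower as widely. Of 37 tested, 24 were lower and 1 was higher (median -3.28). Of the 41 members in the table, 16 had 0 counts in both MPC-11 libraries and 2 had 0 in both primary libraries. Gbp7, an interferon-induced GTPase, stood at 63.7 and 59.7 CPM and was at least 657-fold lower. Usp18, a feedback inhibitor of interferon signalling, stood at 39.9 and 62.0 CPM and was at least 549-fold lower. The higher member Rsad2 had no count in the primary cells and 4.63 and 2.66 CPM in MPC-11, at least 12.5-fold higher. Its call ended with any 1 library left out. In the targeted pair it stood at 62.3 and 7.90 CPM in the flox/- cells against 4.61 and 4.93 CPM with the guide RNA, the opposite direction, and was not called (-2.87; edgeR adjusted p = 0.0809). Without MPC-11 library 1, 13 of the list were lower.

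Jak1, the kinase that the interferon receptors and the common gamma chain receptors share (Entrez 16451; mm10 chromosome 4, 101151974 to 101265282), had no count in any of the 4 MPC-11 libraries. It stood at 299 and 242 CPM in the primary cells, 411 and 584 CPM in the flox/- cells, 211 CPM in bone marrow plasma cells and 977 CPM in follicular B cells. The difference in the control pair was at least 2874-fold (edgeR adjusted p = 6.04e-04). Jak1 was named after its values were seen. Il2rg, the common gamma chain of the receptors for IL-2, IL-15 and IL-21, was at 0 in MPC-11 as well, against 451 and 801 CPM, at least 6768-fold lower.

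Among cytokines, chemokines and their receptors, 13 of 32 tested genes were lower and 3 were higher (median -1.57). Il2rb, the beta chain that pairs with Il2rg, stood at 34.7 and 50.4 CPM in the primary cells and was at least 458-fold lower. Socs2, a feedback inhibitor of cytokine signalling, stood at 49.7 and 53.8 CPM and was at least 553-fold lower. Il15, the ligand of that receptor, stood at 16.8 and 28.1 CPM and was at least 242-fold lower. Ifnar2, a chain of the type I interferon receptor, was one of the 3 higher, at 201 and 281 CPM against 854 and 526 CPM (1.54; edgeR adjusted p = 0.0321). It lost its call without primary library a (1.27), primary library b (1.87) or MPC-11 library 1 (1.20), and was not called in the targeted pair (1.36). Without either of the MPC-11 libraries, 8 of the list were lower.

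Immediate early genes, which respond within minutes to stimulation and to handling of cells, were more often lower than higher in MPC-11. Of 19 tested, 11 were lower and 2 were higher (median -2.37). Of the 27 in the table, 13 had 0 counts in both MPC-11 libraries, 3 of which had none in the primary libraries either. The list summed to 5611 and 12769 CPM in the primary cells and to 1548 and 1787 CPM in MPC-11. Fos stood at 1220 and 3010 CPM in the primary cells, 854 CPM in bone marrow plasma cells and 48.4 CPM in follicular B cells. It had no count in MPC-11, at least 23020-fold lower. Its partner Jun stood at 1073 and 3492 CPM against 11.9 and 10.3 CPM (-7.68 ± 0.77; edgeR adjusted p = 0.00119), and the phosphatase Dusp1 at 220 and 763 CPM against 8.08 and 3.80 CPM. Primary library b lay above library a for each of these 3. Zfp36l1, which promotes the decay of short-lived mRNAs, was higher, at 60 and 49.9 CPM against 291 and 423 CPM (2.75). The primary cells were sorted from tissue and the line from culture, and the part of cell preparation in these values cannot be told apart from the cell type.

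Homing and adhesion genes were lower in 14 of 24 cases and higher in 3 (median -3.22). Itgb2, the shared beta chain of the leukocyte integrins, stood at 875 and 531 CPM and had no count in MPC-11, at least 7420-fold lower. Cxcr3, a receptor that guides plasma cells to inflamed tissue, stood at 148 and 186 CPM and was at least 1791-fold lower. Cd44, the hyaluronan receptor, stood at 289 and 242 CPM against 5.0 and 2.82 CPM (-6.05 ± 0.52; edgeR adjusted p = 7.34e-04). Itgb7 stood at 361 and 433 CPM against 22.9 and 29.8 CPM (-3.88), but reached 304 and 201 CPM in the guide RNA libraries and was not called in the targeted pair (-1.06; edgeR adjusted p = 0.112).

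The 3 higher members of the homing list were Ccr7, Icam1 and Ackr3. Ccr7, the lymph node homing receptor, stood at 4.87 and 7.28 CPM in the primary cells and at 213 and 107 CPM in MPC-11 (4.74 ± 0.59; edgeR adjusted p = 0.00248), and was not called in the targeted pair. Icam1, an adhesion ligand for the leukocyte integrins, stood at 108 and 84.5 CPM against 383 and 363 CPM (2.00), and was not called in the targeted pair either (0.87; edgeR adjusted p = 0.0694). Ackr3, the third, rested on MPC-11 library 1, without which it was not called (2.01). Cxcr4, the receptor for the bone marrow chemokine CXCL12, stood at 56.1 and 14.4 CPM against 35.3 and 25.4 CPM, with overlapping groups and no call (-0.15 ± 0.73; edgeR adjusted p = 0.909).

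The contrast also separated transcripts that mark cells other than plasma cells. Most macrophage and monocyte markers had no count in MPC-11: of 18 in the table, 12 and 14 were at 0 in MPC-11 libraries 1 and 2 against 3 and 3 in the primary libraries. Of 14 tested, 11 were lower and 1 was called higher, while 3 had a log2 fold change above 0. C1qc, a complement gene of macrophages, stood at 147 and 92.3 CPM and at 0 in MPC-11, while Lyz2 stood at 121 and 50.1 CPM and at 0. The marker sum was nonetheless 1704 and 680 CPM in the primary cells and 2586 and 2787 CPM in MPC-11, because Cd68, a lysosomal protein gene, alone stood at 2323 and 2608 CPM there against 106 and 62.3 CPM (4.93 ± 0.45; edgeR adjusted p = 8.84e-04). Cd68 was not called in the targeted pair (2.63; edgeR adjusted p = 0.0912), where flox/- libraries 1 and 2 held it at 673 and 72.6 CPM. T cell markers summed to 54.1 and 63.8 CPM against 0.955 and 0 CPM, NK cell markers to 31.4 and 45.5 CPM against 3.38 and 0.434 CPM, and erythroid markers to 108 and 11.2 CPM against 3.60 and 0 CPM. Follicular B cell markers summed to 3381 and 3991 CPM against 570 and 346 CPM, and to 17010 CPM in the follicular B cells. Genes of the MHC, interferon, cytokine receptor and adhesion lists are expressed by such cells as well, and their part in those results was not tested. In flox/- libraries 1 and 2, macrophage markers summed to 20752 and 2099 CPM and T cell markers to 506 and 1432 CPM. NK cell markers summed to 115 and 276 CPM there, erythroid markers to 1974 and 113 CPM, and neutrophil markers to 0.102 and 1.33 CPM. The part of such cells in the targeted pair was not tested. The bone marrow plasma cells held H2-Ab1 at 5156 CPM, Ptprc at 262 CPM and Jak1 at 211 CPM. Their library also held macrophage markers at 723 CPM in all. Its neutrophil markers summed to 1689 CPM, against 5.06 and 0 CPM in primary libraries a and b. The part of such cells in the bone marrow values was not tested.

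**Figure D5:**
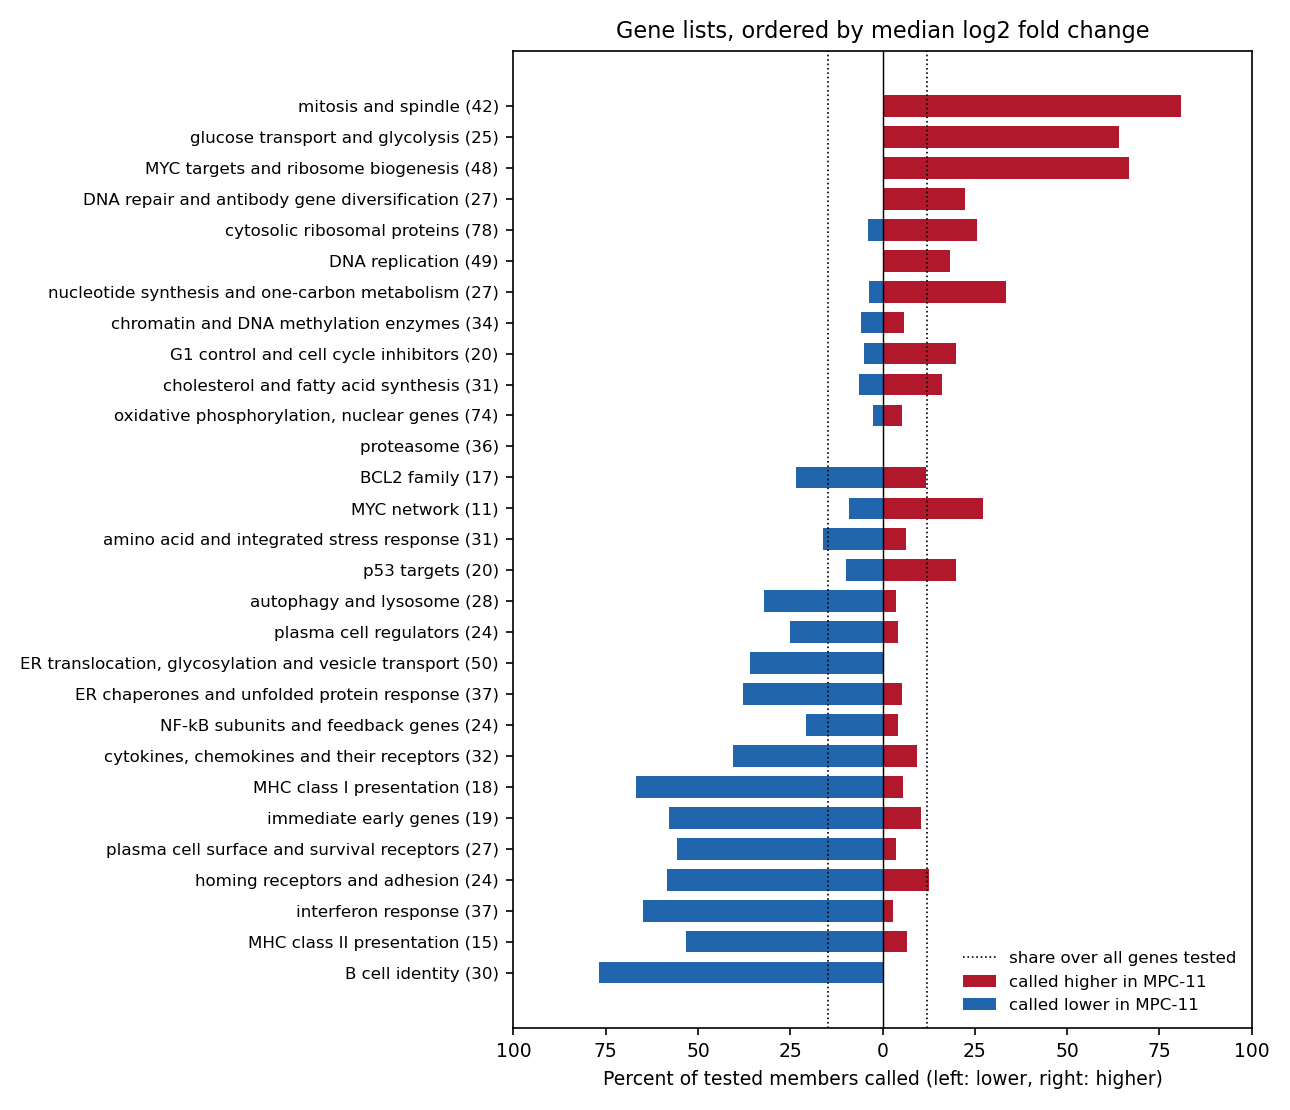
Percent of tested members called lower (blue, to the left) or higher (red, to the right) in MPC-11 for the 29 lists with at least 10 tested members (number tested in parentheses; cell type marker lists are not drawn), ordered by their median log2 fold change. The dotted lines are the shares over all tested genes, 14.8% lower and 12% higher; mitosis lies at the top and B cell identity at the bottom.

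The secretory machinery was lower in part. Of 37 ER chaperones and unfolded protein response genes, 14 were lower and 2 were higher (median -0.90). Mzb1, an ER co-chaperone specific to B cells and plasma cells that helps assemble antibodies, stood at 6133 and 5971 CPM in the primary cells and at 2.87 and 0.977 CPM in MPC-11 (-11.61 ± 0.75; edgeR adjusted p = 5.91e-04). Derl3, which exports misfolded proteins from the ER, stood at 1472 and 1165 CPM against 28.4 and 29.6 CPM (-5.46 ± 0.42; edgeR adjusted p = 6.13e-04). Dnajc3, a co-chaperone of BiP, stood at 1556 and 1750 CPM against 160 and 95.1 CPM (-3.67).

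The general ER chaperones did not pass the test. Hspa5 (BiP) stood at 5441 and 7118 CPM against 3828 and 2775 CPM (-0.90; edgeR adjusted p = 0.130), and Hsp90b1 (GRP94) at 4903 and 4792 CPM against 2464 and 3093 CPM (-0.76). Both were lower in each MPC-11 library, and both were named after their values were seen. Hspa5 was called without primary library a (-1.13; edgeR adjusted p = 0.0498) and by DESeq2 (adjusted p = 0.0457). Ero1l, the oxidase that drives disulphide formation, was higher, at 53.4 and 26.3 CPM against 321 and 263 CPM (2.93 ± 0.47; edgeR adjusted p = 0.00546). The other higher member, the disulphide isomerase Pdia5, stood at 4.09 and 0.533 CPM against 140 and 67.2 CPM (5.55), and lost its call without MPC-11 library 1 (4.93).

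Of 50 genes of ER translocation, glycosylation and vesicle transport, 18 were lower and 0 higher (median -0.87). Sec61a1, the pore of the translocon, stood at 2323 and 1776 CPM against 321 and 419.5 CPM (-2.42 ± 0.38; edgeR adjusted p = 0.00527), close to the 425 CPM of follicular B cells. The signal peptidase subunit Spcs2 stood at 1291 and 2301 CPM against 296 and 217 CPM (-2.79). The count of lower genes went to 14 and 10 without primary libraries a and b, and to 9 and 7 without MPC-11 libraries 1 and 2. Proteasome genes did not differ in any called member (0 of 36 called by edgeR, median 0.28; DESeq2 called 1 higher).

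No member of these ER lists was at 0 in both MPC-11 libraries (0 of 37 and 0 of 50). Among the genes with the largest differences towards the primary cells, which belong to neither list, St6gal1, Man1a and Tmed3 act in the Golgi or between ER and Golgi and were at 0 in MPC-11. St6gal1, which adds sialic acid to the glycans of antibodies and other glycoproteins, stood at 1685 and 1250 CPM in the primary cells and was at least 15562-fold lower. Man1a, a Golgi mannosidase, stood at 1041 and 1345 CPM and was at least 12811-fold lower. Tmed3, a cargo receptor between ER and Golgi, stood at 446 and 579 CPM and was at least 5501-fold lower. St6gal1 was still measured in the bone marrow plasma cells, at 1381 CPM. Of 28 autophagy and lysosome genes, 9 were lower, among them the proteases and hydrolases Ctsh (378 and 617 CPM, at least 5370-fold) and Hexa (164 and 148 CPM, at least 1662-fold), and 1 was higher, Ctsz (1101 and 1539 CPM against 5277 and 4075 CPM, 1.85). Without primary library b, 4 of that list were lower, and without MPC-11 libraries 1 and 2, 3 and 4 were.

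Growth genes were the counterpart. Myc lies on chromosome 15 at 61985341 to 61990361 (mm10, Entrez 17869). It was measured at 22 and 18.3 CPM in the primary cells, 31.2 CPM in bone marrow plasma cells and 86.1 CPM in follicular B cells. In MPC-11 it stood at 1717 and 4191 CPM with the empty vector and at 3654 and 2950 CPM with the guide RNA. The control difference was 152-fold (7.25 ± 0.64; edgeR adjusted p = 7.80e-04), and the targeted pair gave 5.78. Pvt1, the neighbouring long noncoding RNA gene (chromosome 15, 62037986 to 62260215 in mm10), was measured at 10.1 and 7.28 CPM against 307 and 213 CPM (4.94 ± 0.48; edgeR adjusted p = 0.00108).

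Of 11 genes of the MYC network, 3 were higher and 1 was lower (median 0.20), beside 12% and 14.8% over all tested genes. Max, the obligate partner of MYC, stood at 26.7 and 40.7 CPM against 23.5 and 41.9 CPM, with overlapping groups. Mxd4, an antagonist that competes for Max, was lower, at 194 and 284 CPM against 48.4 and 27.7 CPM (-2.63; edgeR adjusted p = 0.00833). The third higher member, Mxi1, lost its call with any 1 library left out (1.33 to 1.85). Max was named after its values were seen.

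Ribosome biogenesis genes and other known targets of MYC were higher in 32 of 48 cases and lower in 0 (median 2.22), and all 32 were called again in the targeted pair. Npm1, a nucleolar chaperone, stood at 33.3 and 41.6 CPM against 608 and 569 CPM (4.0 ± 0.41; edgeR adjusted p = 0.00132). Ppan, a ribosome assembly factor, stood at 31.6 and 35.7 CPM against 405 and 451 CPM (3.70), and Wdr12, of the same process, at 12.9 and 14.7 CPM against 217 and 178 CPM (3.87). Of 78 cytosolic ribosomal protein genes, 20 were higher and 3 were lower (median 1.31). Rpl7 stood at 142 and 158 CPM against 861 and 562 CPM (2.27; edgeR adjusted p = 0.00734). That count went to 9 and 5 without primary libraries a and b and to 2 without MPC-11 library 1. Ribosomal protein genes have many processed copies, so their counts are uncertain.

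Genes of glucose metabolism were higher more often than not. Of 25 genes of glucose transport and glycolysis tested, 16 were higher and 0 lower (median 2.53), and 15 were higher in the targeted pair too. Ldha, which makes lactate, stood at 312 and 358 CPM in the primary cells, 350 CPM in bone marrow plasma cells and 962 CPM in follicular B cells, against 6053 and 3313 CPM in MPC-11 (3.83 ± 0.46; edgeR adjusted p = 0.00208). Tpi1, a mid-pathway isomerase, stood at 193 and 248 CPM against 2938 and 2745 CPM (3.72 ± 0.40; edgeR adjusted p = 0.00151). Pkm, the last enzyme of glycolysis, stood at 507 and 569 CPM against 4533 and 5333 CPM (3.23). Slc16a1, a lactate exporter, stood at 8.18 and 4.62 CPM against 142 and 208 CPM (4.83). Nuclear oxidative phosphorylation genes, by contrast, had 4 higher and 2 lower calls among 74 (median 0.28), shares below those over all genes.

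Nucleotide synthesis and one-carbon metabolism had 9 higher and 1 lower of 27 (median 1.12). Mthfd1, a folate enzyme, stood at 25.3 and 15.1 CPM against 208 and 206 CPM (3.41 ± 0.45; edgeR adjusted p = 0.00300). Gart, of purine synthesis, stood at 86.9 and 65.3 CPM against 438 and 742 CPM (3.01), and Dhodh, of pyrimidine synthesis, at 22 and 19.5 CPM against 162 and 182 CPM (3.09). Prps2, one of the paralogues that make the shared precursor of nucleotides, was the lower member, at 87.5 and 49.2 CPM with no count in MPC-11. Without MPC-11 library 1, 3 genes of the list were higher, and without MPC-11 library 2, 6 were.

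Mitotic genes had the highest median among the same 29 lists. Of 42 genes of mitosis and the spindle, 34 were higher and 0 lower (median 5.03), and 8 had 0 counts in both primary libraries. Aurka, a kinase of spindle assembly, stood at 1.95 and 0.533 CPM in the primary cells and at 126 and 132 CPM in MPC-11 (6.76 ± 0.72; edgeR adjusted p = 0.00147). Kif11, a spindle motor, had no count in the primary cells and 70.0 and 143 CPM in MPC-11, at least 402-fold higher. Hmmr and Kif2c, both of the spindle, had no count in the primary cells either, at least 323-fold and at least 261-fold higher. In the targeted pair 23 of the list were higher, with a median of 2.46, and Hmmr and Kif2c were not called. Without either MPC-11 library, 21 were higher.

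DNA replication genes were higher in 9 of 49 cases and lower in 0 (median 1.20), beside 12% higher and 14.8% lower over all tested genes. Mcm5, a subunit of the replicative helicase, stood at 38.4 and 24.5 CPM against 171 and 203 CPM (2.63). Cdc6, which loads that helicase, had no count in the primary cells and 64.8 and 68.6 CPM in MPC-11, at least 240-fold higher. The targeted pair gave 3 higher and 5 lower with a median of 0.08, and called neither Mcm5 nor Cdc6. Without either MPC-11 library, 4 of the list were higher. The proliferation antigen Mki67 stood at 31 and 26.3 CPM against 33.7 and 115 CPM and was not called (1.43 ± 0.67; edgeR adjusted p = 0.166).

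Genes that control entry into the cycle were mixed, with 4 higher and 1 lower of 20 (median 0.45). Ccnd2, the D cyclin most used by B lineage cells, stood at 101 and 70.0 CPM against 389 and 677 CPM (2.70 ± 0.45; edgeR adjusted p = 0.00646), while bone marrow plasma cells held it at 947 CPM. Ccnd3 stood at 102 and 103 CPM against 111 and 121 CPM and was not called (0.22). Ccnd1 did not pass the filter on low counts, with 0.779 and 6.04 CPM in the primary cells and none in MPC-11. Cdkn1a, the cell cycle inhibitor p21 and a target of p53, was higher, at 45.8 and 56.1 CPM against 300 and 250 CPM (2.46 ± 0.40; edgeR adjusted p = 0.00596). Btg1, an antiproliferative gene, stood at 67.0 and 123 CPM and had no count in MPC-11, at least 1027-fold lower. Of 20 p53 targets 4 were higher and 2 were lower (median 0.12), beside 12% higher and 14.8% lower over all tested genes.

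Among 17 genes of the BCL2 family, 2 were higher and 4 were lower (median 0.24), beside 12% and 14.8% over all tested genes. Bcl2, the prosurvival founder of the family (chromosome 1, 106538176 to 106714290 in mm10), was measured at 502 and 625 CPM in the primary cells and at 19.7 and 29.1 CPM in MPC-11 (-4.49 ± 0.46; edgeR adjusted p = 0.00132). Bone marrow plasma cells held it at 95.6 CPM, below the splenic cells. Mcl1, on which plasma cells depend for survival, stood at 659 and 409 CPM against 896 and 786 CPM and was not called; it was named after its values were seen. The higher members were the proapoptotic Bik (0 and 1.6 CPM against 306 and 200 CPM, 8.26 ± 1.03; edgeR adjusted p = 0.00242) and Bnip3, a mitophagy receptor induced by low oxygen (10.1 and 4.62 CPM against 331 and 135 CPM, 5.03 ± 0.66; edgeR adjusted p = 0.00289).

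The genes with the largest differences towards MPC-11 included genes best known from other tissues. Trap1a, an X-linked tumour antigen gene (Entrez 22037; mm10 chromosome X, 139333683 to 139338169), had no count in the splenic, bone marrow or follicular B cell libraries. It stood at 1384 and 921 CPM in MPC-11, at least 4011-fold higher (edgeR adjusted p = 5.91e-04). Csn3, which encodes the milk protein kappa-casein, had no count in the flox/+ cells and 1155 and 472 CPM in MPC-11, at least 2735-fold higher. Tle6, a transcriptional corepressor of the TLE family, stood at 347 and 434 CPM and was at least 1425-fold higher. The cytokine gene Il17b, at 238 and 201 CPM, was at least 777-fold higher. Bone marrow plasma cells held Csn3 at 43.1 CPM and Tle6 at 13.2 CPM, and Il17b at 0 CPM. Among genes with counts in all 4 libraries, Tgfb2 stood at 2.14 and 1.78 CPM against 87.7 and 149 CPM (5.96) and the clock repressor Nr1d1 at 3.31 and 10.1 CPM against 204 and 330 CPM (5.32).

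Cyp2b10, a drug-metabolizing cytochrome, stood at unlike levels in the empty vector and guide RNA libraries, which were not tested against each other. It had no count in the flox/+ cells, 628 and 577 CPM with the empty vector and 36.0 and 0 CPM with the guide RNA, against 128 CPM in bone marrow plasma cells. In the control pair it was at least 2149-fold higher in MPC-11 than in the primary cells (edgeR adjusted p = 5.91e-04). The test of whether that difference depended on Irf4 targeting did not call it (edgeR adjusted p = 0.999874).

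Towards the primary cells, the largest differences included genes of secreted proteins. Prg2, the eosinophil major basic protein gene, stood at 2638 and 3177 CPM against 0.735 and 0.651 CPM (-11.98), and at 1873 CPM in bone marrow plasma cells against 0.738 CPM in follicular B cells. The protease inhibitor Slpi stood at 12099 and 19804 CPM against 29.8 and 4.13 CPM (-9.88 ± 1.14), and at 17162 CPM in bone marrow plasma cells. The matrix protein gene Spon1, at 1070 and 670 CPM, had no MPC-11 count and was at least 9192-fold lower. Apoe, which macrophages express strongly, stood at 3909 and 6474 CPM against 3.16 and 3.09 CPM (-10.67), and at 252 CPM in bone marrow plasma cells. The macrophage markers C1qc and Lyz2 given above were also lower in MPC-11, while Cd68 was higher there. Between the primary libraries Apoe stood higher in b, whereas C1qc and Lyz2 stood higher in a. The part of macrophages in the Apoe values was not tested.

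Xist, the RNA that silences an X chromosome in female cells, stood at 79.9 and 2.84 CPM in primary libraries a and b and had 1 count in MPC-11, a ratio of 1267 (226 to 50170, an interval for counting error only). The primary libraries differed from each other, and the call (-9.79 ± 2.04; edgeR adjusted p = 0.0128) ended without library a (-6.05), MPC-11 library 1 (-11.61) or MPC-11 library 2 (-8.79).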

How the data were processed

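RNA was prepared with the RNeasy Plus Mini kit and libraries with the Nextera kit, per the labels' protocols. The deposited counts per gene were made by the authors with Subread 1.6.0 and featureCounts on mm10, and limma was also used, per the submitters' processing notes; whether counting used strand is not given in the sources used here. The authors also deposited log2 FPKM values, which were used only as an alternative. Of 27179 rows, 958 without a symbol (at most 0.306% of a library's counts) were left out, as were 261 immunoglobulin genes (Igh, Igk, Igl and Jchain), leaving 25960. The main test was edgeR 4.0.16 (quasi-likelihood F test, TMM, filterByExpr with a minimum count of 10, Benjamini-Hochberg adjusted p under 0.05) in R 4.3.3, on the 4 libraries of each pair. A test of the line by targeting interaction used 8 libraries. Alternatives were DESeq2 1.42.0, limma 3.58.1 on the deposited log2 FPKM, other filters and scalings, immunoglobulin genes kept, a spread over 8 libraries, the replicate number as a block, and each library left out. The scripts were tested on simulated data. SE values belong to log2 fold changes, MPC-11 over primary, and SD values to levels.

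Named were the 12 genes with the largest changes in each direction among called genes at a mean of 20 CPM or more in the higher group, the 8 largest with at least 10 counts in every library, up to 4 called members a direction of each list by p, the genes that define plasma cells, and the immunoglobulin constant genes. Members and lists were chosen with earlier results of these data known. Gene positions are those of RefSeq, build GRCm38.p6, the sequence of mm10. The counting interval has a confidence level of 95%.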

Additional observations from a re-analysis of the deposited data

How the results depend on the processing

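Of 188 named genes with a call, 127 kept it under every alternative tried, 155 kept it under all that use the 4 libraries, and 0 called genes changed direction. The counts of genes higher in MPC-11 and genes lower in MPC-11 in the control pair were 1655 and 2119 with DESeq2, 1228 and 1529 without the filter on low counts, 1552 and 1480 with library size alone, 1323 and 1708 with DESeq2 size factors, 1381 and 1794 with immunoglobulin genes kept, and 1433 and 1912 with the spread over 8 libraries. Library size alone moved the median of all tested genes from -0.01 to 0.21. The median on the deposited log2 FPKM was 0.18, but over all genes without a filter on low counts, so it is not a like comparison. On the deposited log2 FPKM limma gave 1337 and 1484 without and 1562 and 1554 with a replicate block, which there only shares a number between groups of different origin. Leaving out 1 library gave 454 to 1449 genes higher in MPC-11 and 778 to 1460 lower. For genes higher in MPC-11, targeted libraries, the range was 629 to 1276, and for genes lower in MPC-11, targeted libraries, 1401 to 1976, with 1158 and 2047 under the replicate block. The difference of the line effect between control and targeted libraries gave 18 calls with no filter on low counts. The immunoglobulin share of counts differed by -50.3 points without ribosomal RNA and mitochondrial genes, and by -58.6 to -42.6 with a library left out.

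List medians that changed sign had few called members or few tested ones, and the cause was not tested. The median log2 fold change of amino acid and integrated stress response (0.13) went to -0.20 without primary library a and to -0.06 without MPC-11 library 1. The median log2 fold change of p53 targets (0.12) went to -0.058 with DESeq2, -0.00274 with no filter, 0.43 without primary library b, -0.025 and -0.088 without MPC-11 libraries 1 and 2, and -0.022 on the log2 FPKM with and without the replicate block. The median log2 fold change of oncofetal and germline genes and the median log2 fold change of NK cells went to 0 with the spread over 8 libraries. On the log2 FPKM, the NK cells, sex chromosome genes, platelets and megakaryocytes, and stromal and endothelial cells each took 0.18, the median of all genes. Without primary library a the median log2 fold change of sex chromosome genes went to 0.32 (-11.61 without MPC-11 library 1), the median log2 fold change of stromal and endothelial cells to 4.098 (-6.26 likewise) and the median log2 fold change of dendritic cells to 1.79 (-4.28 likewise). The dendritic cells went to 0.69 without primary library b and to 0.63 with immunoglobulin genes kept, where the median log2 fold change of platelets and megakaryocytes went to 0.65. Cxcr4, not called in any of these, went to 0.024 with library size alone, 1.05 without primary library a (-0.79 without b), 0.083 without MPC-11 library 2 and 0.0080 on the log2 FPKM.

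Xbp1 lost its call with immunoglobulin genes kept and on the log2 FPKM, as did Sdc1 (-0.75 on the latter) and Prdm1. Calls of list members under each alternative were counted as an alternative added after seeing the data. Groups of 2 libraries and a deeper sequencing of the non-immunoglobulin genes in MPC-11 limit small changes and low genes in the primary cells.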

Other observations

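Chromosomes were compared with no test, over the tested protein-coding genes at a mean of 20 CPM or more in the higher group. The median log2 fold change was lowest on chromosome X (-0.79 over 187 genes, 51 of them lower and 12 higher) and chromosome 7 (-0.62 over 546 genes, 123 lower and 35 higher). It was highest on chromosome 1 (0.34 over 444 genes) and chromosome 19 (0.31 over 302 genes). In the targeted pair the medians of chromosomes X and 7 were -0.36 and -0.72. The only run of at least 3 adjacent genes that were expressed in the primary cells and at 0 in all 4 MPC-11 libraries was C1qb, C1qc and C1qa, the complement C1q genes of macrophages on chromosome 4.

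The genes of the oncofetal and germline list were mostly unexpressed on both sides. Of 29 in the table, 25 had 0 counts in both primary libraries and 20 had 0 in both groups. DNA repair and antibody gene diversification had 6 higher and 0 lower of 27 tested genes (median 1.6), a count that went to 0 without either MPC-11 library and to 13 without primary library a. The NF-kB list had 5 lower and 1 higher of 24 (median -1.01). Tnfaip3, which encodes the feedback inhibitor A20, stood at 44.0 and 28.4 CPM in the primary cells and had no count in MPC-11, at least 383-fold lower. With the guide RNA it stood at 15.0 and 0 CPM, and it was not called in the targeted pair (-3.63; edgeR adjusted p = 0.164). Of 34 chromatin and DNA methylation enzymes 2 were higher and 2 lower (median 0.54), beside 12% higher and 14.8% lower over all tested genes. The X-linked demethylase Kdm6a stood at 40.3 and 18.8 CPM against 0.147 and 0.217 CPM (-7.18 ± 1.05; edgeR adjusted p = 0.00410; not called in the targeted pair, -4.91), and the demethylase Kdm5b at 43.8 and 56.5 CPM against 192 and 490 CPM (2.81 ± 0.56; edgeR adjusted p = 0.0113).

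Of 31 cholesterol and fatty acid synthesis genes 5 were higher and 2 lower (median 0.36), led by the desaturase Scd2 (200 and 81.2 CPM against 726 and 1177 CPM, 2.83). Of 31 amino acid and integrated stress response genes 2 were higher and 5 lower. Both lists stand beside 12% higher and 14.8% lower over all tested genes. Slc3a2, the shared heavy chain of amino acid transporters, stood at 2989 and 3164 CPM in the primary cells and at 548 and 650 CPM in MPC-11 (-2.32 ± 0.37; edgeR adjusted p = 0.00528).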
